A study of Oryza sativa with 8 samples.

Results

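The stems of a pair of rice lines were compared over all 8 RNA sequencing libraries of the study, 4 from SM92 and 4 from SM. In the labels SM is susceptible and SM92 tolerant to yellow stem borer. This moth is a rice pest, and its larvae feed inside the stem. All plants were grown in the field to the booting stage, and stem pieces from the infested zone were taken 72 hours after larvae had been placed on the tillers by hand, or at the same time from plants left without larvae. The labels list 2 infested and 2 uninfested samples for each line. They give neither the pedigree of SM92 nor the number of plants behind a sample.

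A library was assigned to its line by the table in which its counts stand, which the labels name for each sample. Nothing in the labels links a single count column to infestation or to a replicate number. Each line therefore enters as a mixture of infested and uninfested stems, and the spread within a line contains whatever the larvae changed. The columns are called here by their headings, Y1, Y2, Y5 and Y6 for SM and Y3, Y4, Y7 and Y8 for SM92.

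Cultivated rice lines differ in which genes they carry and in how strongly each gene is read. Such differences are known to occur both at single genes and over stretches of neighbouring genes, because an inserted, deleted or diverged stretch of chromosome carries several genes at once, and because related genes often stand in tandem arrays. Reads are counted here against 1 annotated genome, release 7 of the MSU rice gene models. A gene that is absent, a gene too diverged for its reads to be aligned, and a gene that is present but silent all give low counts, and these cannot be told apart in the data. In whole stem tissue, fewer cells of a type and less RNA per cell cannot be told apart either.

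The libraries held between 50540724 and 57603629 counted fragments, and between 33159 and 34255 of the 55986 gene models had at least 1 read. Of these models, 24892 passed a filter on low counts and were tested, none of them among the 185 models placed outside the 12 chromosomes. The first principal component of log2 normalised counts scaled per library (CPM) held 69.0% of the variance and placed the SM libraries between -145.6 and -98.8 and the SM92 libraries between 99.2 and 148.6. The second held 19.3% and split both lines. It placed Y1, Y2, Y3 and Y4 between -88.2 and -56.7, and Y5, Y6, Y7 and Y8 between 47.9 and 81.3. What it reflects was not tested. The identifiers in the tables are not paired with gene names, and 0 of them matched the 39387 RefSeq rice genes at hand, so markers of stem tissue could not be checked and genes are described by position and level.

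Some libraries were nearly copies of each other. For each pair of libraries, the squared difference of a gene's counts was divided by what counting noise alone predicts, a ratio whose median is 0.455 when nothing else varies. The median over genes was 0.606 for Y7 and Y8, 0.673 for Y3 and Y4, and 0.819 for Y5 and Y6. It was 8 for Y1 and Y2, and at least 17.8 for every other pair within a line. The 3 closest pairs thus differed by little more than counting noise, and nothing in the labels says that libraries of a group came from separate plants. The p-values therefore measure only the spread between these samples, which may be technical. A second fit therefore summed the counts of Y3 with Y4, Y7 with Y8, and Y5 with Y6, which left 3 SM and 2 SM92 samples. Y1 and Y2 stayed separate, so they made up 2 of the 3 SM samples. The filter on low counts was applied anew, and 27531 genes passed it in place of 24892. A mean over a stretch of chromosome can therefore cover other genes than with 8 libraries. The counts and p-values of this second fit are given beside the main counts, named genes and named windows of the 8 libraries.

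A large share of the stem transcriptome separated the lines, in both directions. A gene was called when edgeR's quasi-likelihood test gave a Benjamini-Hochberg adjusted p under 0.05 over all tested genes. With 8 libraries, 9067 of 24892 genes were called, or 36.4%. Of these, 4152 were higher in SM92, or 16.7% of the tested genes, and 4915 were lower, or 19.7%. With near-identical libraries summed, 2591 of 27531 tested genes were called, or 9.41%, with 1206 higher and 1385 lower in SM92. The number called in both fits in the same direction was 2371, of which 1090 were higher and 1281 lower in SM92.

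The typical difference was moderate. The median size of the log2 difference among the 9067 called genes was 1.34, and 5689 of them differed at least 2-fold. The median log2 difference over all tested genes was 0.003, so the median gene was not shifted towards either line. Called genes had a median length of 3312 bases and the other tested genes 3294 bases.

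In 10113 genes the libraries of the lines did not overlap. All 4 SM92 libraries stood above all 4 SM libraries in 4832 genes, or 19.4% of those tested, and below them in 5281, or 21.2%. Because some libraries were near-copies, the 4 libraries of a line do not count as 4 separate samples here. With near-identical libraries summed to 3 SM and 2 SM92 samples, and genes filtered anew, 12689 of 27531 genes did not overlap. Fewer samples separate more easily. Among these 10113 genes, 8636 were also called. The distance between the nearest libraries of the lines, the gap, was at least 1 on the log2 scale in 2742 genes and at least 3 in 799. It was at least 5, which is 32-fold, in 339 genes, or 1.36%. Of the latter, 187 were higher and 152 lower in SM92, and all 339 were also called with near-identical libraries summed.

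Among these 339 genes, 56 had no read in any library of the lower line. Their gap depends on the prior count of 2 that was added before taking logarithms. Set against a floor of 3 counts per library instead, the lowest library of the higher line was at least 32 times the floor in 35 of the 56. Of the 56, 33 were read only in SM92 libraries and 23 only in SM libraries.

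Wide gaps were found at most levels of expression but thinned out among the most abundant transcripts. Tested genes were divided into 4 classes of 6223 genes by mean CPM. In the class from 0.111 to 2.15 CPM, 1.48% had a gap of at least 5, although the prior count of 2 limits the gap that such low levels can show. The share was 2.54% from 2.15 to 9.88 CPM and 1.17% from 9.89 to 33.5 CPM. In the class above 33.5 CPM it was 0.257%, or 16 genes. A gap of at least 1 was found in 19.8%, 13.6%, 7.2% and 3.45% of the genes of these classes, from lowest to highest. The share of called genes varied less, from 39% in the lowest class to 33% in the highest.

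The widest gap belonged to LOC_Os09g20390 on chromosome 9, at chr9:12251875-12254087 on the plus strand of the MSU release 7 coordinates. Its normalised level was 0.422, 0.404, 0.480 and 0.423 CPM in the SM libraries Y1, Y2, Y5 and Y6, and 377, 367, 574 and 585 CPM in the SM92 libraries Y3, Y4, Y7 and Y8. With the prior count, the nearest libraries of the lines were 709-fold apart, which is less than the printed CPM give. Without the prior count, the order of genes by gap would differ. Within SM92, the libraries Y7 and Y8 were higher than Y3 and Y4. The log2 difference was 10.10 ± 0.275 (SE), with an adjusted p of 6.3e-07, and of 0.00106 with near-identical libraries summed.

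LOC_Os06g05440, at chr6:2457358-2458249 on the minus strand, was next among genes higher in SM92. It stood at 0.0528, 0.101, 0.116 and 0.0882 CPM in Y1, Y2, Y5 and Y6, and at 103, 98.9, 115 and 118 CPM in Y3, Y4, Y7 and Y8. The SM92 libraries lay close together, and the SM values correspond to single-digit read counts. The log2 difference was 10.20 ± 0.223 (SE), with an adjusted p of 2.58e-07, and of 0.00106 with near-identical libraries summed.

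In the opposite direction, the widest gap was that of LOC_Os03g17410 at chr3:9680890-9685865 on the minus strand. It reached 194, 204, 229 and 226 CPM in Y1, Y2, Y5 and Y6, and 0.399, 0.261, 0.247 and 0.111 CPM in Y3, Y4, Y7 and Y8. The SM libraries were alike and all SM92 libraries were below 1 CPM. The log2 difference was -9.68 ± 0.358 (SE), with an adjusted p of 2.24e-06, and of 0.00171 with near-identical libraries summed.

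LOC_Os06g38210, at chr6:22613771-22617448 on the plus strand, followed. Its level was 425, 390, 472 and 462 CPM in Y1, Y2, Y5 and Y6, and 0.949, 0.821, 0.607 and 0.910 CPM in Y3, Y4, Y7 and Y8. All SM libraries were at or above 390 CPM and all SM92 libraries below 1 CPM. The log2 difference was -9.05 ± 0.208 (SE), with an adjusted p of 3.1e-07, and of 0.00106 with near-identical libraries summed.

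**Figure D1:**
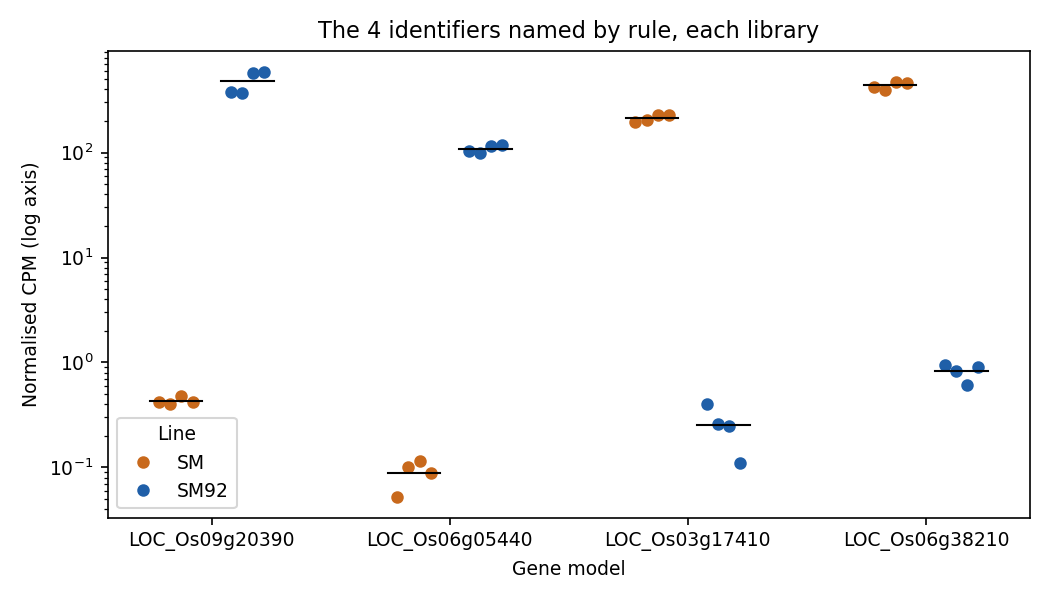
Normalised CPM on a log axis of the 2 gene models with the widest gap in each direction, 1 point per library, with SM in orange, SM92 in blue and the mean of the 4 libraries of a line as a bar. In each gene the groups are separated by more than 2 powers of 10. With the prior count of 2, not part of the plotted CPM, the nearest libraries were 396-fold apart in LOC_Os06g38210 and 709-fold in LOC_Os09g20390.

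One very abundant transcript was among the genes with wide gaps. The gene model at chr8:22324588-22325693, the third by gap among those higher in SM92, stood at 8880, 8900, 6070 and 5870 CPM in Y3, Y4, Y7 and Y8, and at 5.65, 6.18, 6.92 and 9.14 CPM in Y1, Y2, Y5 and Y6. Here Y3 and Y4 were the higher SM92 libraries, the reverse of their order in LOC_Os09g20390. The log2 difference was 10.06 ± 0.360 (SE), with an adjusted p of 2.24e-06, and of 0.00174 with near-identical libraries summed.

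Many of these genes still had some reads in the low line. Over the 183 genes with a gap of at least 5, a mean of at least 1 CPM and higher levels in SM92, between 92 and 114 had a read in a given SM library. The median level there was between 0.016% and 0.13% of the SM92 mean. Over the 143 such genes lower in SM92, between 87 and 104 had a read in a given SM92 library, at a median of between 0.14% and 0.25% of the SM mean. Whether these reads came from the gene itself was not tested.

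Called genes lay on all 12 chromosomes. The share of tested genes called with 8 libraries ran from 33.0% on chromosome 5 to 41.0% on chromosome 11 and 42.0% on chromosome 12, against 36.4% over all tested genes. With near-identical libraries summed it ran from 6.82% on chromosome 5 to 15.2% on chromosome 11, against 9.41% of its tested genes. On chromosome 11, 140 of the 252 genes called in the summed fit were higher in SM92, while on chromosome 3 it was 89 of 246. The median log2 difference of a chromosome's tested genes stayed between -0.03 and 0.06.

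Wide gaps were less evenly spread than calls. Chromosome 11 held 55 of the 339 genes with a gap of at least 5, which is 3.80% of its 1446 tested genes. Chromosome 8 followed with 38 genes, or 2.29%, and chromosome 9 with 32, or 2.28%. Chromosome 3 had 20 such genes among 3187 tested, or 0.628%, beside 1.36% over all chromosomes. Directions were lopsided on some chromosomes, with 25 of 30 such genes higher in SM92 on chromosome 12 and 18 of 24 lower on chromosome 7.

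**Figure D2:**
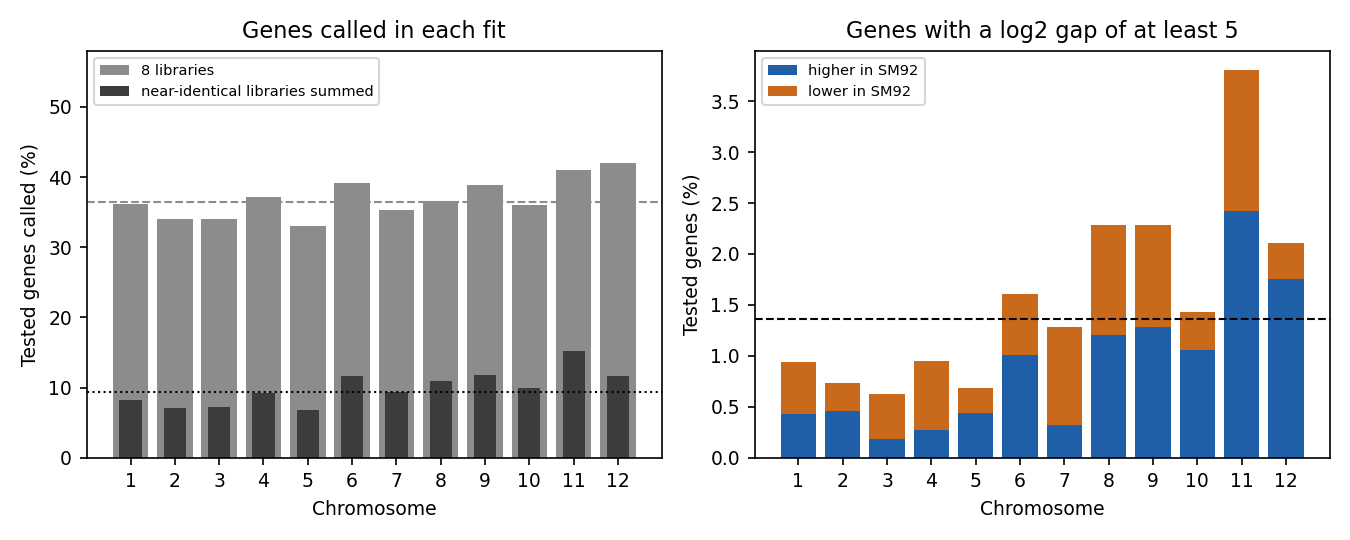
Left, percent of tested genes called on each chromosome with 8 libraries (light bars) and with near-identical libraries summed (dark bars), with the shares over all chromosomes of 36.4% and 9.41% as dashed and dotted lines. Right, percent of tested genes with a log2 gap of at least 5, higher (blue) or lower (orange) in SM92, with 1.36% over all chromosomes as a dashed line; chromosome 11 is highest at 3.80% and chromosome 3 lowest at 0.628%.

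Chromosomes with a high share of wide gaps tended to have a smaller share of gene models expressed enough to be tested. The tested share of gene models was 34.8% on chromosome 11 and 57.2% on chromosome 3. Chromosome 4 was an exception, with a tested share of 41.6% and a gap of at least 5 in only 0.949% of tested genes. A similar tendency held along chromosomes in windows of 1 Mb, divided into 4 classes by tested share. In the class of windows with the lowest tested share, 5.96% to 28.4% of models, 3.16% of tested genes had a gap of at least 5. In the class with the highest tested share, 60.5% to 82.1%, it was 0.5%. Over the 378 windows with at least 5 tested genes, Spearman's rho between the tested share and the share with such a gap was -0.29. The number of tested genes enters both shares, and a gene high in only 1 line can pass the filter. Part of the relation may therefore be built in. Windows share the same 8 libraries and are not independent. The part of gene density or abundance in the distribution of wide gaps was not tested.

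Called genes were found along whole chromosomes and were not confined to a few blocks. Every one of the 378 windows held at least 1 called gene, and 377 held called genes in both directions. With near-identical libraries summed, 376 held a called gene. As 36.4% of all tested genes were called, a window with many tested genes would hold a called gene under an even scatter too. These counts therefore do not measure clustering. The share of tested genes called in a window had a median of 36.7% and ran from 11.8% to 75.0%. Genes with a gap of at least 5 were found in 176 of the 378 windows.

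Windows also differed in their mean level. The mean log2 CPM of the tested genes of each window was compared between the lines with limma. These means were not centred, so a lower level in SM92 spread over many windows is counted in each of them. How many windows differ from their surroundings was not tested. With 8 libraries, 214 of 378 windows, or 56.6%, passed an adjusted p of 0.05, with 72 higher and 142 lower in SM92. With near-identical libraries summed, 107 windows passed, or 28.3%, and 105 passed in both fits, 45 of them higher and 60 lower in SM92. Most differences were small. Their median size among the 214 windows was 0.32 on the log2 scale, and 11 reached 1 or more, 5 of these higher and 6 lower in SM92.

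The largest rise lay in the 25th window of chromosome 11, chr11:24000001-25000000. Its mean was 0.50, 0.30, 0.14 and 0.20 log2 CPM in Y1, Y2, Y5 and Y6, and 2.36, 2.40, 2.44 and 2.48 in Y3, Y4, Y7 and Y8, so that the groups were well apart and the SM92 libraries nearly equal. The difference was 2.14 ± 0.0753 (SE), with an adjusted p of 8.29e-08, and of 4.96e-05 with near-identical libraries summed. Of its 44 tested genes, 23 were called higher and 3 lower in SM92. With medians of genes in place of means, the difference was 1.15 at an adjusted p of 0.001. With 9 genes, it also held the most genes with a gap of at least 5 of any window, 8 of them higher in SM92.

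The other windows with the largest rises were on chromosomes 4, 12, 10 and 5. The 22nd window of chromosome 12, chr12:21000001-22000000, stood between 2.07 and 2.17 log2 CPM in the SM libraries and between 3.42 and 3.52 in the SM92 libraries, with a difference of 1.33 ± 0.0422 (SE) and an adjusted p of 6.61e-08, or 9.39e-05 with near-identical libraries summed. Its median gene differed by only 0.22, and 6 of its 45 tested genes had a gap of at least 5, all higher in SM92. The 2nd window of chromosome 10 differed by 1.02 ± 0.114 (SE), with an adjusted p of 9.85e-05, or 0.00179 with near-identical libraries summed, again with 6 of 45 genes at such a gap, all higher in SM92. Compared by medians of genes, the latter window had an adjusted p of 0.0861 and was no longer called.

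Near the start of chromosome 4, windows higher in SM92 were followed by windows lower in SM92. The mean difference was 0.784 in chr4:1000001-2000000 and 1.43 ± 0.195 (SE) in chr4:2000001-3000000, with adjusted p of 1.67e-05 and 0.000314, or 0.00138 and 0.00252 with near-identical libraries summed. It then turned to -1.72 ± 0.145 (SE) in chr4:3000001-4000000 and -1.55 ± 0.137 (SE) in chr4:4000001-5000000, with adjusted p of 1.67e-05 and 1.98e-05, or 0.00179 and 0.00138 with near-identical libraries summed. Each of these 4 windows passed the test in both fits. The difference of the 4th window, however, varied with the fit. It was -1.09 with near-identical libraries summed, where genes were filtered anew, and -3.37 over genes with a mean of at least 50 counts. By medians of genes, the 5th differed by -0.80. They hold few expressed genes, 39, 21, 16 and 31 in this order, out of 143 to 152 gene models each. In the 4th window, 12 of the 16 tested genes were called, which at 75.0% was the highest share of any window.

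The other large falls were in the 11th window of chromosome 4, the 16th of chromosome 11 and the 9th of chromosome 9. The 16th window of chromosome 11, chr11:15000001-16000000, stood at 1.89, 1.79, 2.07 and 2.11 log2 CPM in Y1, Y2, Y5 and Y6 and at 0.36, 0.41, 0.76 and 0.74 in Y3, Y4, Y7 and Y8, a difference of -1.39 ± 0.11 (SE) with an adjusted p of 1.4e-05, or 0.000468 with near-identical libraries summed. The 9th window of chromosome 9 differed by -1.32 ± 0.0572 (SE), with an adjusted p of 3.53e-07, or 0.000363 with near-identical libraries summed. It differed by -0.51 when medians of genes were compared. The 11th window of chromosome 4 rests on 9 tested genes. Its difference of -1.44 was -0.15 with near-identical libraries summed, where its adjusted p was 0.586 against 0.000106 with 8 libraries. Genes were filtered anew in the summed fit, so these values need not cover the same genes. The same limit holds for the 13th window of chromosome 5. It differed by 1.02 with 8 libraries and by 0.467 with near-identical libraries summed, at adjusted p of 4.06e-06 and 0.0179. Leaving out Y1 gave 0.63 and leaving out Y3 gave 0.68, also over genes filtered anew, with adjusted p of 9.42e-05 and 0.000416. With 8 libraries, Y1 stood at 1.36 log2 CPM in this window, between Y6 at 1.32 and Y2 at 1.59. By medians of genes the window differed by 0.43, with an adjusted p of 0.00359.

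**Figure D3:**
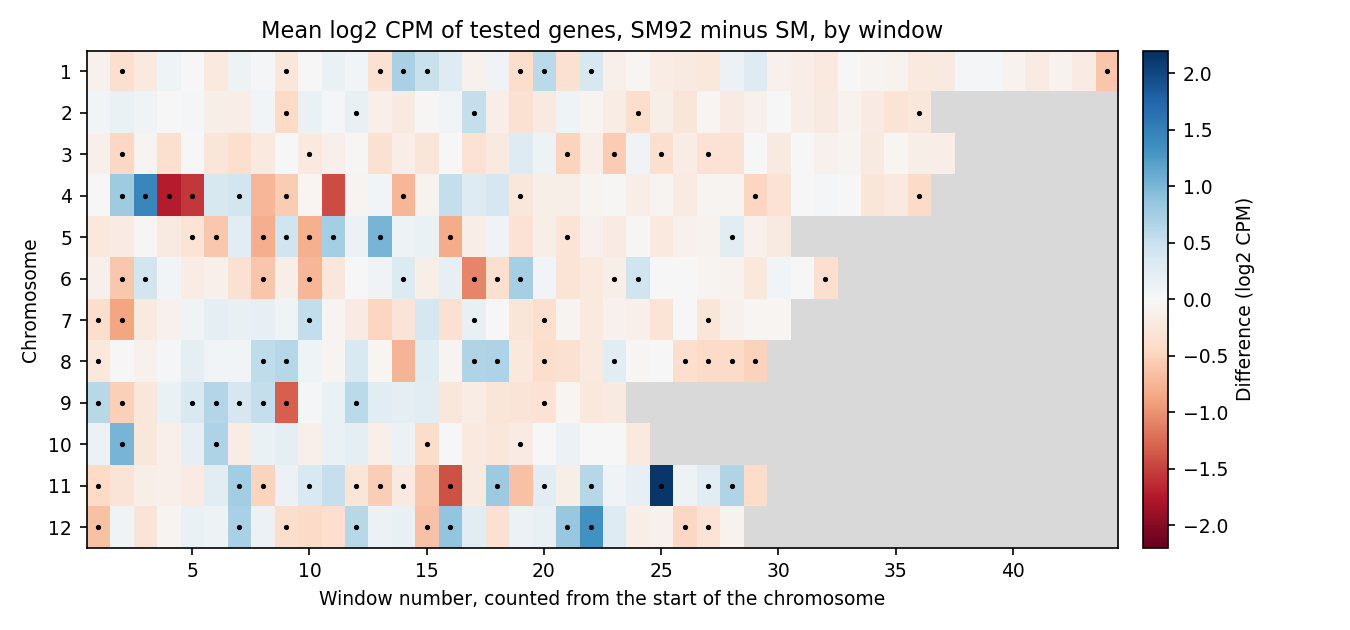
Difference in mean log2 CPM of the tested genes, SM92 minus SM, in windows of 1 Mb along each chromosome, with blue higher and red lower in SM92, grey where no window was tested, and a dot where the window passed an adjusted p of 0.05 in both fits (105 windows). The strongest blue is the 25th window of chromosome 11 at 2.14, and the 4 windows from the second of chromosome 4 pass from blue to red.

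Genes that differed between the lines had neighbours that differed more often than tested genes in general. The gene following a called gene along the chromosome was itself called in 40.1% of cases, against 36.4% of all tested genes. Among these 3635 neighbouring pairs, 2281, or 62.8%, differed in the same direction. With near-identical libraries summed, the next gene was called in 20.8% of cases, against 9.41% of its tested genes, and 401 of 539 pairs, or 74.4%, had the same direction. At a distance of 2 tested genes the same-direction share was 55% with 8 libraries, and at 20 genes it was 50.7%.

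The pattern was steeper for genes with wide gaps. The gene next to one with a gap of at least 5 also had such a gap in 15.1% of cases, against 1.36% of all tested genes, and 47 of these 51 pairs had the same direction. The share was 8.28% at a distance of 2 genes, 6.21% at 3 and 3.55% at 5. From 6 to 20 genes away it moved between 1.78% and 5.33% without a steady trend, and stayed above 1.36% throughout. These are descriptions without a test, since neighbouring genes are measured in the same libraries.

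**Figure D4:**
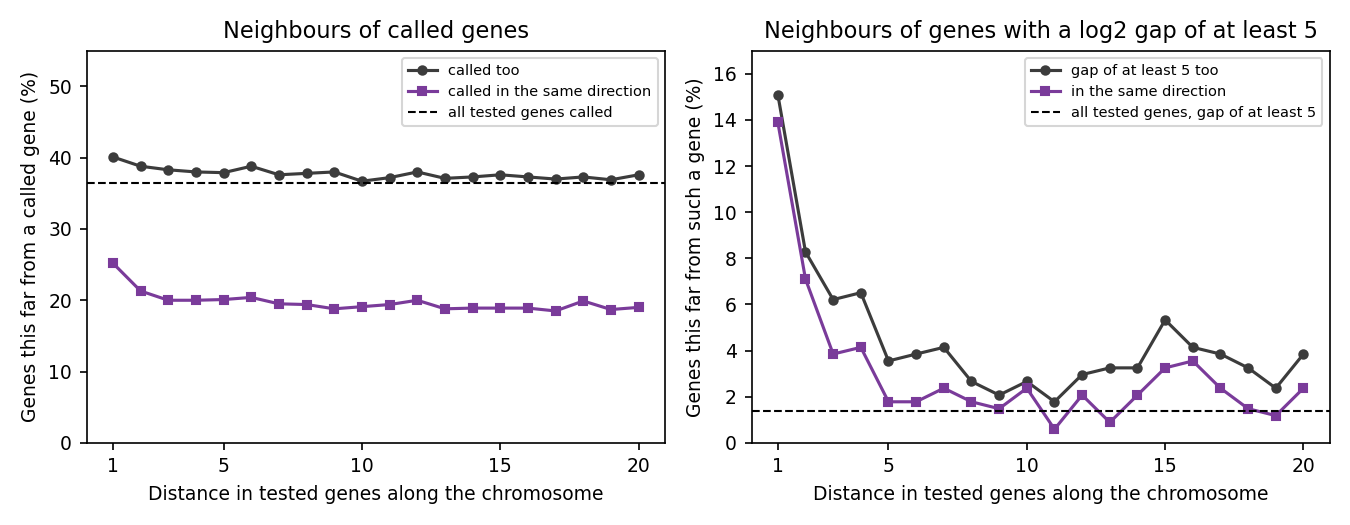
Left, percent of genes at each distance, counted in tested genes along the chromosome, from a called gene that were called too (black) or called in the same direction (purple), with 36.4% of all tested genes as a dashed line. Right, the same for genes with a log2 gap of at least 5, with 1.36% as a dashed line; the share falls from 15.1% for the next gene to 3.55% at a distance of 5, and then moves between 1.78% and 5.33%.

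The same-direction share differed by how neighbouring genes were oriented. Of neighbours on the same strand that shared no base, 2018 pairs were both called and 65.5% of them had the same direction. The share was 62.0% of 789 divergent pairs, whose starts face each other, and 56.1% of 752 convergent pairs, whose ends face each other. Gene models overlapping on opposite strands gave 41 of 69 pairs, or 59.4%. Of the 18 pairs overlapping on the same strand, 7 were both called, all in the same direction.

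Neighbouring calls in 1 direction formed 440 runs of 3 or more tested genes, 201 higher and 239 lower in SM92. They took in 1540 genes, or 17% of those called. Of the 440 runs, 45 had 5 genes or more. Over all tested genes, 16.7% were called higher and 19.7% lower in SM92. At such shares some runs of 3 arise without any clustering, and their number was not estimated. With near-identical libraries summed there were 69 runs of 3 or more, 40 higher and 29 lower in SM92, and the longest had 12 genes.

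The longest run with 8 libraries lay on chromosome 7, at chr7:1873911-1984543, where 17 tested genes in a row over 111 kb were lower in SM92. The libraries of the lines did not overlap in any of the 17, and 11 of them were also called with near-identical libraries summed. The first and the third genes had no SM92 read, and by the mean of the SM libraries were at least 14.8-fold and 14-fold lower there. Y5 and Y6 raised these means. The first gene stood at 0.229 and 0.354 CPM in Y1 and Y2 and at 1.72 and 1.68 CPM in Y5 and Y6. The third stood at 0.457 and 0.488 CPM in Y1 and Y2 and at 1.29 and 1.53 CPM in Y5 and Y6. Among genes with reads in both lines, the second and the fourth differed most and the last 3 least. The fourth gene, chr7:1903120-1905581, stood at 38.1, 44.2, 42.8 and 48.5 CPM in Y1, Y2, Y5 and Y6 and at 0.0949, 0.0746, 0.0225 and 0.0222 CPM in Y3, Y4, Y7 and Y8. From the tenth to the fourteenth gene, chr7:1946345-1966341, the levels were between 7.06-fold and 8.40-fold lower in SM92. The last 3 genes were 2.2-fold, 1.57-fold and 2.19-fold lower. In most genes of the run, Y5 and Y6 were above Y1 and Y2, so that the level also varied within SM. The tested genes on either side were not called, with log2 differences of 0.14 and -0.45.

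On chromosome 10, 11 tested genes in a row at chr10:1871009-2057559, over 187 kb, were higher in SM92, and all 11 were also called with near-identical libraries summed. Of these, 4 had no read in any SM library. The most abundant, chr10:1949297-1956934, stood at 59.6, 59.0, 49.8 and 49.7 CPM in Y3, Y4, Y7 and Y8 and at 0.0528, 0.0337, 0.0497 and 0.0353 CPM in Y1, Y2, Y5 and Y6. The gene at chr10:2018955-2032385 was unread in SM and had a mean of 5.41 CPM in SM92, at least 102-fold higher against the floor of 3 counts per library. The genes at the edges of the run differed less, by 3.16-fold at its start and 5.06-fold at its end, and had reads in every library. The tested gene just before the run differed in the opposite direction, with a log2 difference of -9.77 and an adjusted p of 0.00117.

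On chromosome 11, 9 tested genes over 84.9 kb at chr11:24001622-24086493 were higher in SM92, and all 9 were also called with near-identical libraries summed. They open the window with the largest rise and supplied 9 of its 23 genes called higher. The gene at chr11:24046399-24050126 stood at 42.0, 43.7, 24.0 and 24.2 CPM in Y3, Y4, Y7 and Y8 and between 0.0166 and 0.0673 CPM in the SM libraries. In it Y3 and Y4 were above Y7 and Y8, while in chr11:24067050-24070308 they were far below, at 2.01 and 1.57 CPM against 12.6 and 11.4 CPM. The latter had no read in any SM library. Its SM92 mean of 6.89 CPM was at least 130-fold higher, a value that Y7 and Y8 set. The run began with a gene read in all libraries, 15.7-fold higher in SM92.

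On chromosome 1, 9 tested genes over 97.4 kb at chr1:20775474-20872847 were lower in SM92, of which 8 were also called with near-identical libraries summed. The gene at chr1:20816955-20820446 stood at 24.7, 21.4, 28.3 and 26.6 CPM in Y1, Y2, Y5 and Y6 and at 0.019, 0.112, 0.0225 and 0 CPM in Y3, Y4, Y7 and Y8. Within SM, the gene at chr1:20849734-20857251 separated Y1 and Y2, at 27.0 and 25.6 CPM, from Y5 and Y6, at 106 and 102 CPM. All of these were above the highest SM92 library, at 2.29 CPM. The tested gene just after the run was higher in SM92, with a log2 difference of 4.72 and an adjusted p of 0.000983.

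On chromosome 9, 9 tested genes spread over 302 kb at chr9:11374271-11676423 were higher in SM92, and 7 were also called with near-identical libraries summed. That stretch holds 41 gene models. The gene at chr9:11441886-11444551 had no read in SM and stood at 8.56, 8.47, 6.81 and 7.13 CPM in Y3, Y4, Y7 and Y8, at least 146-fold higher. Others in the run differed little, such as chr9:11459371-11460795, which was 2.03-fold higher at an adjusted p of 0.00513. The tested gene before the run was lower in SM92, with a log2 difference of -6.77 and an adjusted p of 0.00314.

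**Figure D5:**
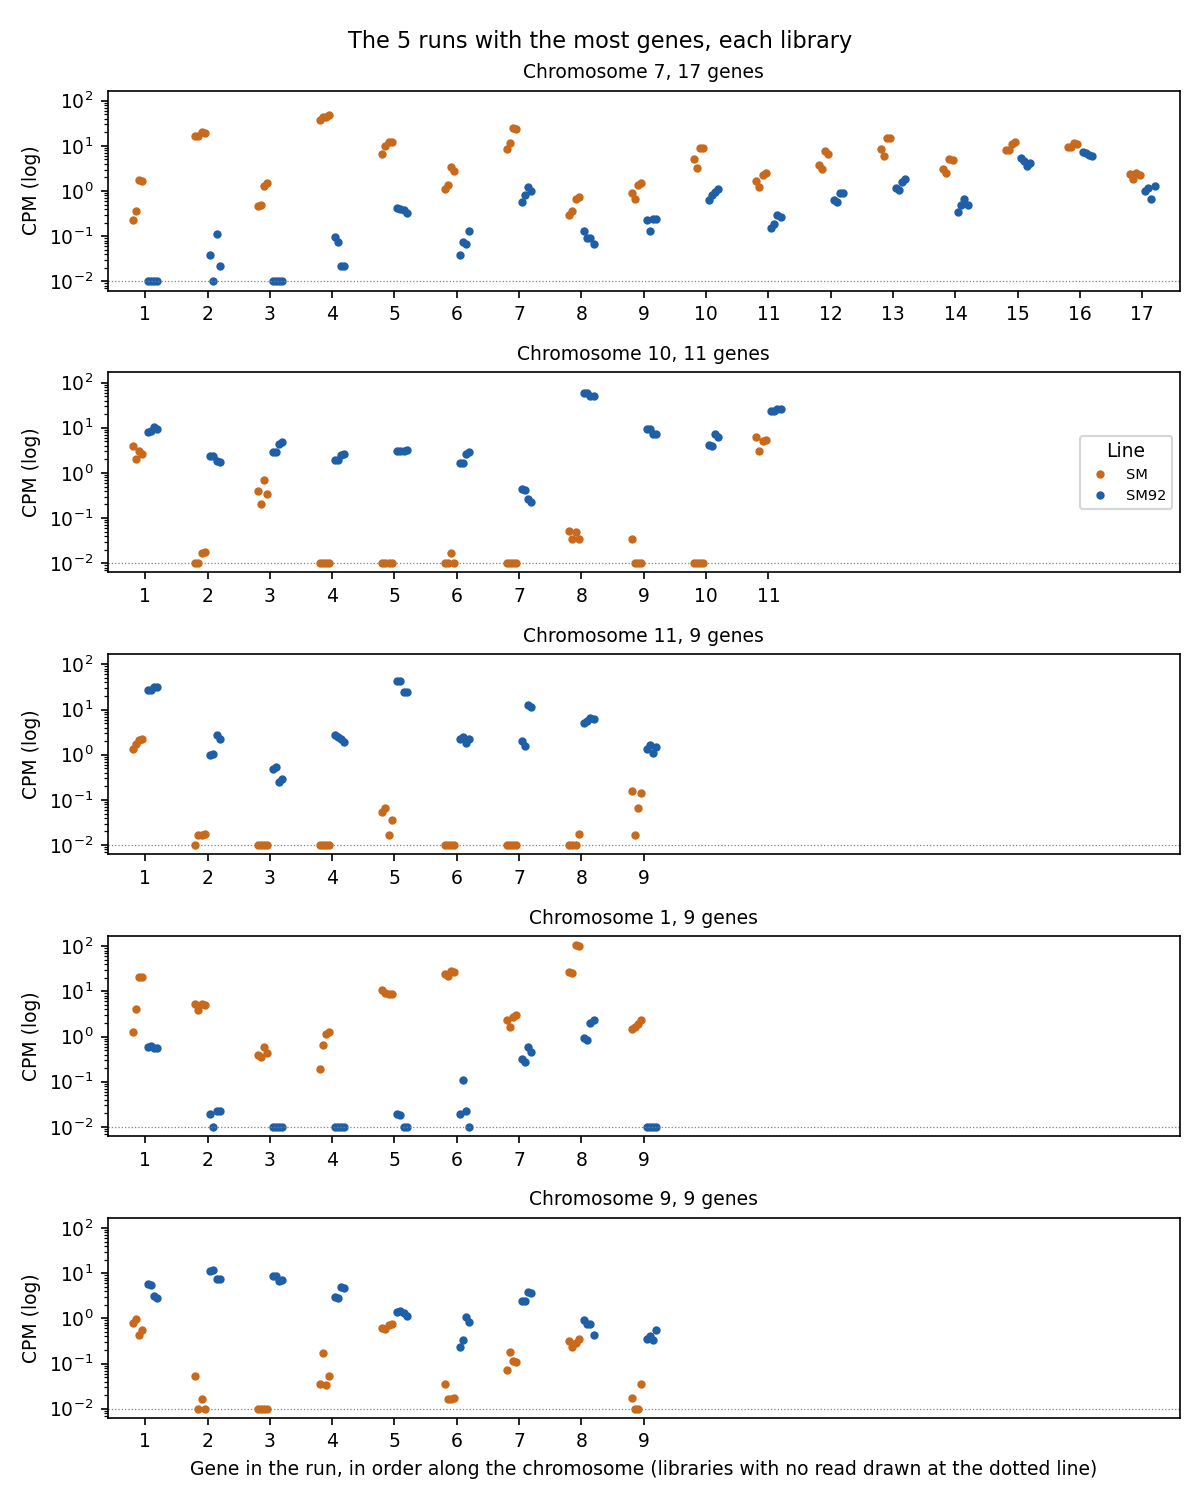
CPM on a log axis in each library of every gene in the 5 runs with the most genes, in order along the chromosome, with SM in orange and SM92 in blue and libraries without a read drawn at 0.01 CPM on the dotted line. The points of the lines stand apart in every gene of the 5 runs, and in the run on chromosome 7 the distance is narrowest in the last 3 genes.

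In these 5 runs, strongly and weakly differing genes stood side by side, and genes lay on both strands. The run on chromosome 7 had 12 genes on the plus strand and 5 on the minus strand, and the run on chromosome 11 had 2 and 7. In 4 of the 5, the tested gene on one side was called in the opposite direction. Within a chromosome, a run ends only at a gene not called or called in the opposite direction. As 36.4% of all tested genes were called, a called gene on either side of a run is common. The chosen runs are the 5 with the most genes, so their lengths are a description. In windows where genes share sequence with close relatives, the level of single genes is uncertain, because the recorded counting command does not include fragments aligned to several places.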

How the data were processed

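Per the labels' protocols, RNA was depleted of ribosomal RNA and sequenced as stranded libraries. The deposited counts are fragment counts per gene model, not normalized, made with featureCounts 2.0.0 and strand option 2, per the file headers. The submitters' processing notes also name FastQC, Trim Galore, STAR and DESeq2, without versions. The recorded command does not set the option that counts multiply aligned fragments, per the file headers.

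Counts were joined on the gene identifier. They were filtered with filterByExpr by line, scaled with TMM and tested with edgeR 4.0.16 in R 4.3.3. Standard errors are the fold change divided by the root of F. Windows were tested with limma 3.58.1 on mean log2 CPM with a prior count of 2. Alternatives covered DESeq2 1.42.0, limma-voom, other scaling, filters, window sizes and leaving out each library. Scripts were checked on simulated counts.

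The comparison, members and lists were chosen with earlier results of these data known. Genes were named by the widest gap among called, non-overlapping genes with a mean of at least 1 CPM. Only the first 2 identifiers in each direction are printed, since no names are attached; other genes are given by position. Named windows are the 5 largest in each direction, and named runs the 5 with the most genes. Planned gene lists and cell type markers needed gene names and were not applied. Summing near-identical libraries, those with a median ratio under 1, was decided after seeing the data. The gap limit of 5, the third-ranked gene's description and the windows of chromosome 4 were also chosen after their values were seen.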

Additional observations from a re-analysis of the deposited data

Results flagged for a closer look

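Among 32 sets of 4 libraries examined (library totals, genes with a read, and the named genes and windows in each line), 1 held a library far from the other 3. Of the SM libraries, Y1 had 33159 gene models with a read, while Y2, Y5 and Y6 had between 34109 and 34195. Among sets of 4 independent values, chance alone marks about 5%. The sets here share libraries, and some libraries are near-copies, so that share does not apply directly.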

How the results depend on the processing

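No paired analysis was possible because nothing in the column headings gives a replicate number. Summing near-identical libraries gave 2591 genes, 107 windows, 69 runs and 12689 genes without overlap. It raised the largest ratio of a chromosome's called share to the overall share from 1.15 to 1.61. That fit has fewer samples by construction, and its genes were filtered anew. An adjusted p of 0.01 gave 5346 genes. Without a filter on low counts, there were 254 runs and that ratio was 1.07. Allowing 1 other gene within a run gave 818 runs. A gap of at least 1 left 2742 genes. Windows of 0.5 Mb gave 391 calls, windows of 2 Mb 110, and medians in place of means 115. Under the medians, the 2nd window of chromosome 10 (0.35, adjusted p = 0.0861) and the 11th of chromosome 4 (-0.40, adjusted p = 0.0584) lost their call. DESeq2's Wald test called 10981 genes, 9038 of them shared in direction with the 9067. Leaving out each library, with genes filtered anew each time, gave 7366 to 9728 genes. The 4 named genes kept direction and call in all 64 recomputed values, with adjusted p up to 0.00171. They were chosen for the widest gaps in these same libraries, so this outcome was nearly fixed by the choice. The chromosome with the highest called share was 12 in the 8-library fit. It was 11 with upper quartile factors, without any 1 library other than Y2, and with near-identical libraries summed, and 1 without a filter. Depth limits the gene models under the filter, which were not tested.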
